A study of Homo sapiens with 13 samples.

Results

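The genes of the cytosolic ribosome were followed through BMP4-driven differentiation of human embryonic stem cells and through a graded block of BMP signaling. Members were all features with a human Ensembl identifier whose symbol begins with RPS or RPL followed by a number, with or without a final A, X or L, together with RPLP0, RPLP1, RPLP2 and RPSA. This rule found 81 of 61541 features, 32 named for the small subunit and 49 for the large subunit, and all 81 are annotated as protein-coding in GENCODE release 44. Readthrough genes that fuse RPL17, RPL36A or RPS10 to a neighbour are separate features and were left out, as were 1288 features named as copies and annotated as pseudogenes. All libraries came from the human embryonic stem cell line RUES2 with a GFP::SMAD4 fusion, grown in mTeSR medium. In the time series, 7 libraries of total RNA depleted of ribosomal RNA were made from cells in 100 ng/mL BMP4, 5 µM IWP2, which blocks Wnt secretion, and ROCK inhibitor: 2 labelled 0 h, and a single library for each of 4, 12, 20, 28 and 42 h. The labels give the 0 h libraries the same agents as the others, and both are read here as the start of treatment. In the dose series, 5 polyA-selected libraries came from cells held for 5 h in BMP4, IWP2, ROCK inhibitor and 0, 10, 30, 100 or 300 nM of LDN-193189 (LDN), an inhibitor of BMP type I receptors, and a sixth from cells labelled with medium alone for 5 h, called untreated.

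Each cytosolic ribosome contains a single copy of nearly every ribosomal protein, so their messages are among the most abundant of a growing cell. Most of these messages begin with a C followed by an unbroken run of pyrimidines, the 5′ terminal oligopyrimidine or TOP motif, through which mTOR signaling controls their translation together. Pluripotent stem cells are known for high ribosome biogenesis combined with comparatively low protein synthesis, and both are set anew as cells differentiate. Ribosomal protein genes also host many of the small nucleolar RNAs that guide modification of ribosomal RNA, and here 28 of the 81 members contained at least 1 annotated snoRNA, 60 in all.

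Start-site sequences are shown because the TOP motif, which the rule did not use, was found in a larger share of members than of all promoters. RefSeq promoter windows of GRCh38.p14, from 250 bases before to 50 bases after each annotated start, were matched for 64 of the 81 members. Of these, 42 (65.6%) carried C followed by 4 bases of C or T exactly at the annotated start, against 4.04% of all 27305 promoters in the table. A run of at least 8 pyrimidines touching the 10 bases on either side of the start was found in 49 of 64 members (76.6%) and in 15% of all promoters. The median length of the longest such run was 11 bases for members and 4 for all promoters. The windows below run from 12 bases before the start to the 18th transcribed base, 5′ to 3′ on the strand of the gene, with the longest pyrimidine run near the start in capitals. The first 3 belong to the members with the highest slopes on hours, the next pair to a member low on that scale and to the member with the highest level, and the last 3 have no C at the annotated start followed by 4 pyrimidines.
RPL13A, chr19:49487596-49487625, plus strand: caaaaCCTCCTCCTTTTCCaagcggctgcc
RPLP0, chr12:120201094-120201123, minus strand: cgggcgcgaggCCCTTCTCTCgccaggcgt
RPS3, chr11:75399506-75399535, plus strand: cgcgagccaCTTCCTTTCCTTTCagcggag
RPS27, chr1:153990750-153990779, plus strand: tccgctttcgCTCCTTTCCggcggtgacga
RPL41, chr12:56116621-56116650, plus strand: aacttcgCCTTTCTCTCggccttagcgcca
RPL27, chr17:42998407-42998436, plus strand: gggtgaaaggTTagcggaagtgtccttctt
RPS29, chr14:49598693-49598722, minus strand: cgagcgcgcagCTggcagcggtggttgttt
RPS27L, chr15:63157460-63157489, minus strand: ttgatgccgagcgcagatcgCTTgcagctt
The motif CCGGAAG, a core sequence of ETS factors, was present on either strand of the 300-base window in 22 of 64 members (34.4%) and 10.7% of all promoters. AAGATGGC, a core of YY1 sites, was present in 6 members (9.38%) against 3.03%, and TATAAA in 6 members (9.38%) against 12%. An annotated start is not a measured one, so a missing run says only that these letters are not at that position.

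Library totals ranged from 37957385 to 71333471 counts in the time series and from 28742690 to 33989998 over the 5 doses, and the untreated library held 15600931. Summed CPM (counts scaled to a fixed library total) of 8 amnion markers was 14.1 in both 0 h libraries and 4557 at 42 h, and that of 7 pluripotency markers was 7846 and 7847 at 0 h and 4121 at 42 h. The pluripotency sum did not fall steadily: it peaked at 10180 in the 20 h library, where PODXL alone made up 4856. POU5F1 differed between the 0 h libraries (1003 and 1721 CPM), and its final value of 1145 lay between them. Each of the other pluripotency markers ended below both of its 0 h values. Markers of streak, endoderm and neural cells summed to between 2.26 and 5.98 CPM throughout. The 2 libraries at 0 h stood apart from each other: transcripts encoded by mitochondrial DNA took 7.6% of counts in replicate 1 and 4.29% in replicate 2, and transcripts of the RN7SL family 0.905% and 3.01%. Nothing states whether they came from separate cultures, and no later time and no dose has a replicate, so each trend below was tested against the scatter of the libraries about a fitted line.

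At 0 h the members had a median of 855.8 FPKM (fragments scaled by transcript length and depth, the scale on which genes can be compared), and 64 of the 81 were among the 200 features with the highest mean FPKM. RPL41, which encodes the smallest ribosomal protein, had the highest mean, with 4522 and 5138 FPKM in the 0 h libraries. It was followed by RPS2, at 2692 and 3117 FPKM, and by RPS15, at 2460 and 2919 FPKM. Among themselves, these 3 genes kept their order in both libraries. RPL35, a protein beside the exit tunnel, measured 1649 and 3272 FPKM, so that its place in the order depended on the library. At the other end, RPS27L was at 31.7 and 26.1 FPKM, RPL39L at 17.4 and 28.6, and RPL3L at 0.16 and 0.23. RPL10L, an intron-less copy expressed in testis, had 0 counts in all 13 libraries, which at 3 counts allows at most 0.0421 to 0.192 CPM. RPL3L, the form of striated muscle, had between 4 and 31 counts per library. These 2 genes fell below the filter of a mean of 1 CPM and the other 79 members were tested in both series. Counts were assigned by the authors with a model that shares out ambiguous reads, and the pseudogene copies together received between 1.29 and 2.8 counts per 100 member counts. How many reads of a gene were given to its copies, or the reverse, was not tested.

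**Figure D1:**
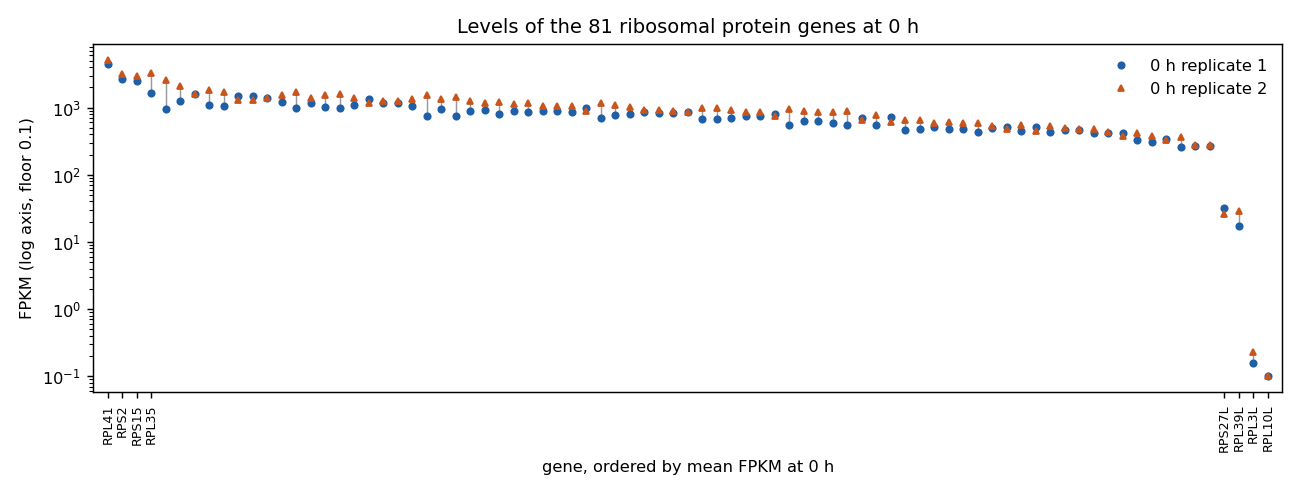
FPKM of the 81 members in each 0 h library (circles, replicate 1, and triangles, replicate 2), on a log axis with values under 0.1 drawn at 0.1, ordered by the mean. All but RPS27L, RPL39L, RPL3L and RPL10L lie above 200 FPKM, and RPL35 shows a wide gap between the 2 libraries. Labels mark the genes whose FPKM is given above.

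As a share of all counts the members took 2.77% and 3.53% in the 0 h libraries, then 2.71%, 2.77%, 2.77%, 3.2% and 3.28% from 4 to 42 h. The 4 h share lay below both 0 h libraries, and every later share lay between them, 12 h and 20 h at 2.774% and 2.772% against 2.770% in replicate 1. With mitochondrially encoded transcripts left out of the total, the shares were 2.998% and 3.69% at 0 h, then 2.83%, 2.88%, 2.85%, 3.30% and 3.34%, so that 12 h and 20 h also lay below both. Relative to the 0 h mean of 3.15% ± 0.538 (SD, n = 2), the 42 h share was 1.04-fold, which was 1.18-fold replicate 1 and 0.928-fold replicate 2. On summed FPKM the shares were 6.74% and 6.24% at 0 h, then 6.42%, 5.55%, 6.15%, 6.16% and 5.83%, so there the 4 h library lay between the 0 h libraries and the 42 h library below both. The dose series, made with another RNA kit and with polyA selection, gave 4.95%, 4.96%, 5.01%, 5.06% and 5.14% from 0 to 300 nM LDN, and 4.57% in untreated cells. The share was higher at each of the 4 successive doses. Levels cannot be compared across the 2 preparations. In bulk RNA, a change in the message per cell cannot be told apart from a change in which cells were present.

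Scaled by TMM factors, which align the bulk of genes between libraries, summed CPM of the 79 members was 27266 and 34379 in the 0 h libraries, followed by 25019, 26367, 27826, 32871 and 37798 at the 5 later times. The sum was lowest at 4 h and highest at 42 h. At 4 h, 62 of the 79 members (78.5%) lay below both 0 h libraries and 0 above both, against 32.5% and 34.2% of all 15976 genes tested. At 12 h, 52 members were below both (all genes 34.5%) and 2 above both (all genes 35.3%), and at 20 h 50 were below (all genes 39.3%) and 4 above (all genes 40.3%). By 28 h, 24 members lay below both (all genes 39%) and 24 above both (all genes 39.6%). At 42 h, 24 were below (all genes 43.2%) and 37 above (all genes 43.5%). The median log2 difference of the members from the 0 h mean was -0.29, -0.27, -0.26, 0.02 and 0.10 at the successive times from 4 to 42 h, while that of all genes stayed between -0.00 and 0.01. Taken against replicate 1 alone the 4 h median was -0.18, and against replicate 2 alone it was -0.40. Scaled by the library total, 48 members were below both 0 h libraries at 4 h (all genes 23.6%) and 1 was above both (all genes 42.9%). On that scale the 42 h library turned the other way, with 41 members below both (all genes 54.2%), 16 above both (all genes 32.8%) and a median of -0.135, beside -0.234 for all genes. These are single libraries with no test.

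**Figure D2:**
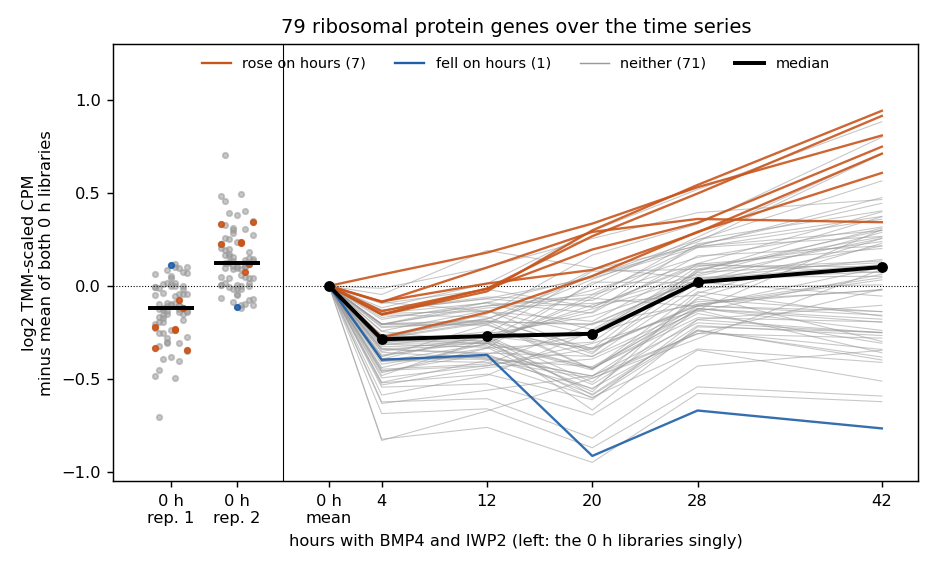
TMM-scaled log2 CPM of the 79 members tested, minus each gene's mean over both 0 h libraries. On the left the 0 h libraries are shown singly, with a bar at the median; on the right lines run from 0 to 42 h. The median (black) is lowest at 4 to 20 h and the genes fan out afterwards, with the 7 that rose (orange) at the top and RPS27L (blue) at the bottom.

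The trend over 42 h was fitted as a straight line on hours, which cannot show a shared fall at 4 h followed by a return. Of 79 members tested, 7 rose (8.86%) and 1 fell (1.27%) in edgeR's quasi-likelihood test, whereas 19.2% of all genes rose and 17.5% fell. A member not called is not shown to differ from the others. Slopes are given as the fitted log2 change over 42 h. Those of the members had a median of 0.15 and a range from -0.78 to 0.97, with 53 above 0 and 26 below. The slopes' standard deviation was 0.36 over members and 1.63 over all genes, and the median standard error for a single member was 0.21. Without 0 h replicate 1 the members' values were 0.303 and 0.235. Members share libraries, so these values do not measure how far members truly differ. The genes that rose were RPL13A, RPLP0, RPS3, RPL18, RPL7A, RPLP1 and RPS29.

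RPL13A, a large-subunit protein that can also leave the ribosome to silence inflammatory messages, had 650.0 and 903 CPM at 0 h, followed by 688, 751, 942, 1116 and 1471 CPM from 4 to 42 h. All libraries from 20 h on were above both 0 h libraries, and the fitted change was 0.97 ± 0.21 (SE, adjusted p = 0.00843). RPS3, which lines the entry of the mRNA channel, had 549 and 648 CPM at 0 h, then 622, 675, 752, 861 and 1044 CPM from 4 to 42 h. It was above both 0 h libraries from 12 h on, with a fitted change of 0.80 ± 0.15 and an adjusted p of 0.00389, the lowest of any member.

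The stalk recruits elongation factors to the ribosome and consists of RPLP0, its anchor, and the acidic proteins RPLP1 and RPLP2. RPLP0 had 844 and 1357 CPM at 0 h, then 963, 1060, 1288, 1510 and 2016 CPM. Only its 28 h and 42 h libraries exceeded both 0 h libraries, and its fitted change was 0.91 ± 0.24 (adjusted p = 0.0208). It did not pass without 0 h replicate 1 (0.78), the 4 h library (0.85) or the 42 h library (0.72). RPLP1 had 339 and 462 CPM at 0 h and 603 at 42 h, a change of 0.64 ± 0.22 (adjusted p = 0.0494). RPLP2 went from 224 and 284 CPM to 343 CPM, and its value of 0.50 ± 0.20 did not pass (adjusted p = 0.0795). RPSA, a small-subunit protein first described as a laminin receptor, had 719 and 855 CPM at 0 h and 1005 at 42 h, a fitted 0.39 ± 0.16 that did not pass (adjusted p = 0.0903).

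RPL13, whose slope was among the 5 highest, did not pass. It had 553 and 939 CPM at 0 h, then 592, 649, 808, 907 and 1254 CPM, a value of 0.79 ± 0.28 (adjusted p = 0.0563). The gap between its 0 h libraries was as wide as much of the later course.

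RPS27L, a paralog of RPS27 that p53 is known to induce, was the member that fell. It had 15.5 and 13.2 CPM at 0 h and then 10.9, 11.1, 7.6, 9.01 and 8.42 CPM. Every later library lay below both 0 h libraries, and the fitted change was -0.78 ± 0.26 (adjusted p = 0.043). The call was lost on leaving out any library other than that of 20 h, with slopes from -1.12 to -0.63. Next in order came RPS27, which carries a zinc finger, with 115 and 136 CPM at 0 h, then 70.6, 73.8, 64.8, 83.7 and 81.2 CPM. It was below both 0 h libraries at all later times, but most of the difference was already there at 4 h, and the slope of -0.52 ± 0.33 did not pass (adjusted p = 0.241). RPL23 showed the same shape, with 309 and 350 CPM at 0 h, then 204, 208, 180.0, 226 and 218 CPM, and a slope of -0.51 ± 0.29 that did not pass (adjusted p = 0.197). RPL11 had 286 and 342 CPM at 0 h and between 193 and 246 CPM afterwards (slope -0.41 ± 0.26, adjusted p = 0.24). RPL37 had 207 and 193 CPM at 0 h and between 132 and 158 CPM afterwards (slope -0.36 ± 0.21, adjusted p = 0.208).

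RPL5 and RPL11 form, with 5S ribosomal RNA, the particle that restrains MDM2 when ribosome assembly fails. RPL5 had 454 and 595 CPM at 0 h and 613 at 42 h, a slope of 0.21 ± 0.21, so that the pair had fitted changes of opposite sign, neither past the threshold. RPS19, the gene most often mutated in Diamond-Blackfan anaemia, had 203 and 311 CPM at 0 h and 411 at 42 h, or 0.69 ± 0.26 (adjusted p = 0.0671). RPS6, the substrate of S6 kinase, had 645 and 816 CPM at 0 h and 871 at 42 h, with its lowest value of 575 CPM at 20 h (slope 0.26 ± 0.22). RPS27A, made as a fusion with ubiquitin, had 251 and 222 CPM at 0 h and 211 at 42 h (slope -0.11 ± 0.20). RPL10A had 388 and 395 CPM at 0 h and 481 at 42 h (slope 0.36 ± 0.16, adjusted p = 0.113).

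By subunit, 2 of 32 small-subunit members rose and 1 fell, with a median slope of 0.20, and 5 of 47 large-subunit members rose and 0 fell, with a median of 0.12. Among the 28 snoRNA hosts the median slope was 0.25 and 3 rose, and among the 51 other members it was 0.11 and 4 rose. Members with the C and 4 pyrimidines at the start had a median slope on hours of 0.14 over 42 genes, and the other matched members 0.17 over 21 genes.

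The slopes on hours varied with base composition. Across the 79 members, the slope on hours followed the GC content of the canonical transcript, which ranged from 40.1% to 63.5%, with Pearson's r = 0.58 and Spearman's rho = 0.60. The 40 members at or above the members' median of 47.6% GC had a median slope of 0.32, and the 39 below it -0.10. The log2 difference between the 2 libraries at 0 h followed GC as well, with r = 0.59 and rho = 0.52 over members, and r = 0.47 over 15911 genes of the whole table, although both libraries carry the same labels. Its median over members was 0.24, with 14 members more than 1.5-fold apart (all genes 14.8%). Over all genes, r between slope and GC was 0.17. Genes share libraries and are not independent replicates, so these are descriptions. For the log2 difference at 4 h r was -0.15, and for the slope on LDN dose 0.14. With an offset for GC fitted in each library, r fell to 0.10 for the slope on hours, and the standard deviation of the members' slopes to 0.30. The offset takes out by construction what follows GC over all genes in a library, whatever its source, and that source was not tested. With the offset, 3 of the 7 risers (RPL13A, RPS3 and RPS29) still rose (all genes 16.3%). No member fell at an adjusted p under 0.05 (all genes 18.8%), and 1 fell at an unadjusted p under 0.05 (all genes not counted).

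**Figure D3:**
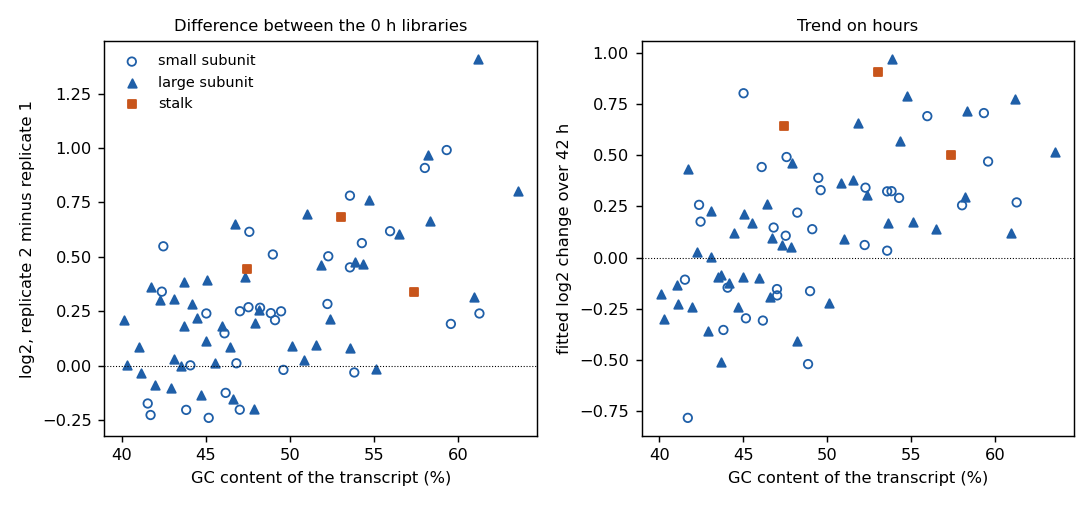
Left, log2 difference of TMM-scaled CPM between the 2 libraries at 0 h, and right, the fitted log2 change over 42 h, each against the GC content of the transcript for 79 members (open circles, small subunit, triangles, large subunit, squares, stalk). Both panels slope upwards (r = 0.59 and r = 0.58).

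The count of risers also rested on which 0 h library was used. Without 0 h replicate 2, 27 members rose (34.2%, all genes 21.4%) and 0 fell (3166 of all 16022 genes), and the 27 included all 7. Without replicate 1, 2 rose (all genes 14.6%), RPL13A and RPS3. Without the 42 h library, 0 members rose (all genes 11.7%) and 0 fell (all genes 8.65%) by edgeR. The counts were 3 and 1 at an unadjusted p under 0.05 (all genes not counted). Leaving out the 4, 12, 20 or 28 h library gave 2, 3, 4 and 3 risers (all genes 15%, 16.4%, 18.5% and 15.3%). RPL18, RPLP1 and RPS29 did not pass on leaving out any library other than 0 h replicate 2, and RPL7A did not pass without 0 h replicate 1 or the 4, 12, 28 or 42 h library. The median slope of the members was 0.343 without 0 h replicate 2, 0.0758 without 4 h and -0.0123 without 42 h. RPL13A and RPS3 were the members that rose with either 0 h library alone, and both had values without 42 h of 0.82 and 0.78 that did not pass.

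The direction of the module over time depended on the scaling. With TMM factors the median slope of the members was 0.15 and that of all genes -0.00. Scaled to the library total, the medians were -0.09 and -0.24, with 3 members rising (all genes 13.3%) and 4 falling (all genes 25.5%). Upper-quartile factors gave -0.06 and -0.21, with 3 rising (all genes 14%) and 1 falling (all genes 24.8%). When members and mitochondrially encoded genes were left out of the total, the medians were -0.14 and -0.30, with 2 rising (all genes 12.6%) and 8 falling (all genes 27.9%). The distance between the medians stayed between 0.15 and 0.16 under these scalings. A library factor shifts every slope by nearly the same amount, so this distance could hardly change and is no check of the result. Under other settings it was 0.0771 at a mean of 10 CPM, 0.0717 with limma on log2(FPKM + 1) and 0.387 with no filter. Without the 42 h library it was 0.00652. Scaled to the summed counts of the members, which removes the level of the module, RPL13A and RPLP0 rose (all genes 9.16%) and 8 members fell (all genes 20.5%), namely RPL11, RPL23, RPL37, RPL7, RPS24, RPS25, RPS27 and RPS27L. RPL13A had 0.64 ± 0.17 on this relative scale, and RPS27 -0.85 ± 0.24.

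**Figure D4:**
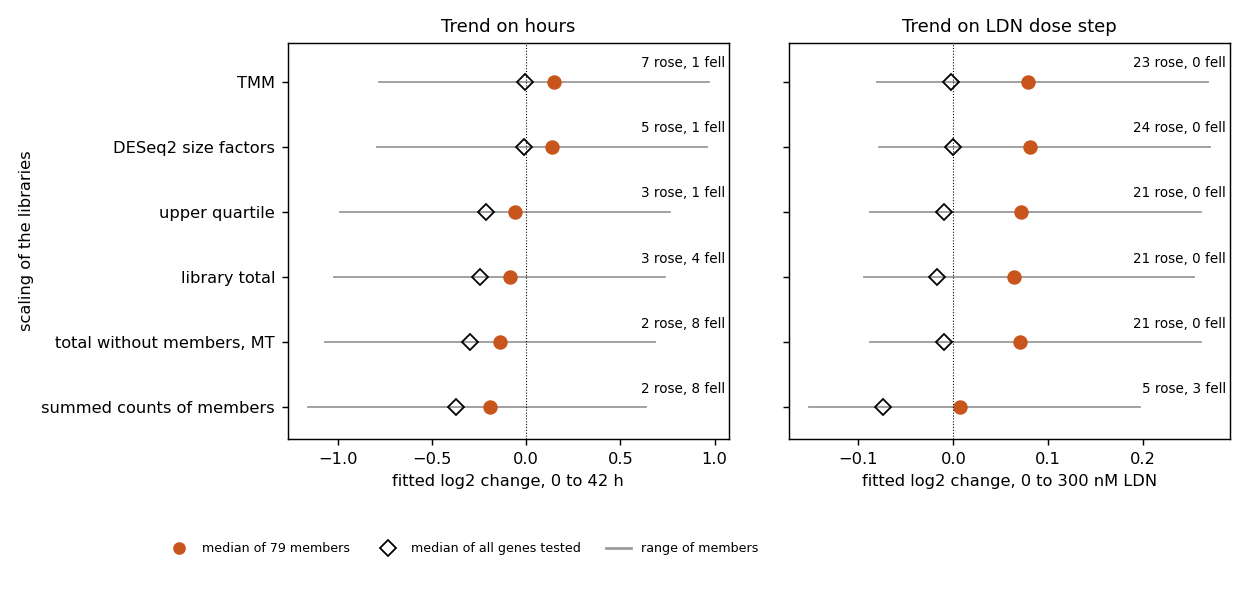
Median slope of the 79 members (filled circles) and of all genes tested (open diamonds) under 6 scalings, with the range over members as a line and the number of members that rose and fell. On hours the member median crosses 0 between the DESeq2 and upper-quartile factors, whereas on LDN dose it is above 0 in all 6, though only 0.01 when scaled to the members.

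Over the dose series the members changed by smaller amounts and mostly in 1 direction. Of 79 tested, 23 rose with the LDN dose (29.1%) and 0 fell by edgeR, against 10.4% and 10.9% of all genes. The median standard error of a slope was 0.0398 for members and 0.0892 for all genes. A slope of a given size therefore passes more easily among members, and the shares are not matched for this. The fitted change from 0 to 300 nM had a median of 0.08 over members and -0.00 over all genes, with a range from -0.08 to 0.27, and was above 0 for 64 of 79 members. At an unadjusted p under 0.05, 37 rose and 0 fell, but all genes were not counted at that threshold. DESeq2 called 24 up and 0 down (1182 and 1207 of all 14907 genes). Without the 300 nM library 8 rose (all genes 6.66%) and without the 100 nM library 13 (all genes 7.2%). RPL27 and RPL36 were the members that passed on leaving out any 1 of the 5 doses. The 300 nM library held the highest value of the 5 for 55 members (all genes 25.8%), and 16 were higher at each of the 4 dose steps (all genes 7.24%). The 23 comprised 12 small-subunit and 11 large-subunit genes, and 4 of them (RPL18, RPLP0, RPLP1 and RPS29) were among the 7 that rose on hours. This overlap was not tested, and all genes rising in both trends were not counted. Across the 79 members, the slopes on hours and on dose were only weakly related (Spearman's rho = 0.126).

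RPS29 had 148, 164, 163, 166 and 186 CPM from 0 to 300 nM, the highest fitted change of any member at 0.27 ± 0.05 (adjusted p = 0.00305), which did not pass without the 300 nM library. RPL27 had 344, 373, 380, 388 and 420 CPM in the same order, a change of 0.25 ± 0.04 and the lowest adjusted p of the members, 0.000784. It was higher at every step. RPL36 had 246, 270, 277, 277 and 297 CPM (0.23 ± 0.05, adjusted p = 0.00272). RPS21 had 106, 106, 104, 109 and 127 CPM, so that its rise of 0.23 ± 0.07 (adjusted p = 0.0308) came from the 300 nM library, and without that library its slope was 0.04 and did not pass. It did not pass without 10 nM either.

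Among those that did not rise, RPLP2 had 350, 312, 311, 320 and 323 CPM, the lowest fitted change at -0.08 ± 0.06 (adjusted p = 0.36). RPL7A had 1154, 1094, 1115, 1088 and 1092 CPM (-0.07 ± 0.04), RPL37A 363, 335, 327, 333 and 344 CPM (-0.06 ± 0.05), RPS23 444, 418, 416, 414 and 423 CPM (-0.06 ± 0.04) and RPS26 284, 270, 259, 278 and 265 CPM (-0.06 ± 0.05). In these 5 genes the 0 nM library was the highest of the 5. Within the stalk, RPLP0 had 1651, 1818, 1861, 1847 and 1857 CPM (0.14 ± 0.04, adjusted p = 0.0379), so that its rise lay between 0 and 10 nM, and it did not pass without 0 or 100 nM. RPLP1 rose from 511 to 564 CPM (0.13 ± 0.04, adjusted p = 0.0316), and passed on leaving out no library other than that of 10 nM. RPSA had 1467 CPM at 0 nM and 1444 at 300 nM (-0.01 ± 0.03). RPS19 rose from 311 to 365 CPM (0.19 ± 0.04, adjusted p = 0.00551) but did not pass without 0 or 300 nM, whereas RPL5 (0.03 ± 0.04), RPL11 (-0.03 ± 0.05), RPS6 (0.09 ± 0.03, adjusted p = 0.0543), RPS27A (0.02 ± 0.05) and RPL10A (0.03 ± 0.04) did not pass.

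**Figure D5:**
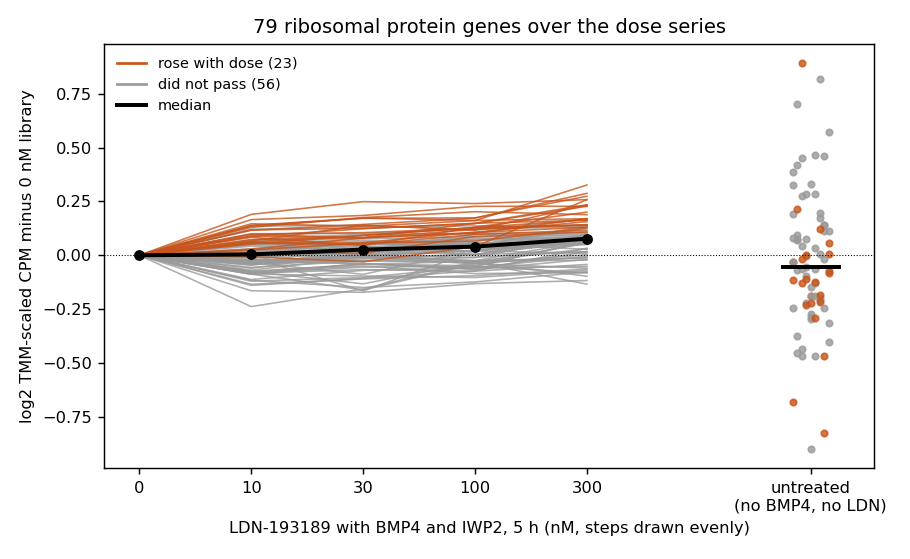
TMM-scaled log2 CPM of the 79 members minus the 0 nM library, over 5 LDN doses (lines) and in untreated cells (points on the right, with a bar at the median). The lines stay within a narrow band whose median reaches 0.08 at 300 nM, and the untreated points scatter from -0.90 to 0.89.

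The rise with dose kept its direction under DESeq2 factors, upper quartile, library total and the total without members and mitochondrial genes. Between 21 and 24 members rose and 0 fell, while of all 14907 genes between 1423 and 1594 rose and between 1610 and 1771 fell. TMM, DESeq2 and upper-quartile factors of the 5 dose libraries all lay between 0.996 and 1.009, so these scalings differed little. Scaled to the summed counts of the members, 5 rose (6.33%, all genes 6.18%) and 3 fell (3.8%, all genes 17.1%). RPS29, RPL27, RPL36, RPS15A and RPS27 rose on this scale, and RPL4, RPL7A and RPS23 fell. Scaling to the members puts some above and some below their common level by construction. The share that rose was near that of all genes. With the GC offset 50 rose (63.3%, all genes 19.4%), with the median of all genes itself shifted to 0.05 and the distance of the member median from it at 0.08. With limma on log2(FPKM + 0.1), 4 rose (all genes 2.78%). Members with C and 4 pyrimidines at the annotated start had a median change with dose of 0.09 over 42 genes, and those without it 0.04 over 21 genes.

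Members lay on both sides when untreated cells were set against the 0 nM library. The median log2 of untreated over 0 nM was -0.05, or -0.138 scaled by the library total, and 70 of 79 members lay outside the range of all 5 dose libraries, 42 below and 28 above (all genes outside 69.9%). Only 6 members (7.59%) differed by more than 1.5-fold, against 20.5% of all genes. RPS27 had 250 CPM at 0 nM and 464 in untreated cells, RPLP2 350 and 569, and RPL38 183 and 322. In the other direction, RPS15 had 569 and 322 CPM, RPL18 411 and 256, and RPS27L 23.6 and 12.6. In RPS15, for example, the 5 dose libraries ranged from 569 to 654 CPM. Mitochondrially encoded transcripts took 7.89% of the untreated library and between 4.22% and 4.49% of the dose libraries, and their part in these differences was not tested. With 1 library on each side there is no test.

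Several members have a close paralog that other tissues use in their place. RPL22, an RNA-binding protein known to repress its paralog RPL22L1, had 202 and 190 CPM at 0 h and 164 at 42 h (slope -0.24 ± 0.22), with 380 CPM at 0 nM and 408 at 300 nM (0.11 ± 0.04, adjusted p = 0.0665). RPL22L1, which the name rule does not include, fell from 22.96 and 27.05 CPM to 9.71 CPM at 42 h (slope -1.11 ± 0.26, adjusted p = 0.012). With dose it rose, from 59.8 to 62.9, 65.2, 70.2 and 77.9 CPM (0.37 ± 0.05, adjusted p = 0.000252), and was 49.6 CPM in untreated cells. RPL39, which lines the exit tunnel, had 36.3 and 37.1 CPM at 0 h and 35.3 at 42 h, a slope of 0.00 ± 0.18, and its testis-enriched paralog RPL39L had 7.7, 12.5 and 10.8 CPM (slope 0.09 ± 0.26). RPL36A had 101 and 98.2 CPM at 0 h and 77.5 at 42 h (-0.23 ± 0.20), and RPL36AL 68.3, 66.0 and 39.0 CPM (-0.72 ± 0.38, adjusted p = 0.164). RPL7 had 428 and 429 CPM at 0 h and 338 at 42 h (-0.30 ± 0.20), and RPL7L1, a factor of large-subunit assembly, 214, 200.1 and 156 CPM (-0.37 ± 0.15, adjusted p = 0.0849). RPL26 had 396 and 360 CPM at 0 h and 305 at 42 h (-0.24 ± 0.18) and rose with dose from 636 to 708 CPM (0.14 ± 0.03, adjusted p = 0.0104, not passing without 300 nM), whereas RPL26L1 stayed between 7.51 and 8.66 CPM over time. RPL3, at the peptidyl transferase centre, had 909 and 1259 CPM at 0 h and 1582 at 42 h (0.57 ± 0.21, adjusted p = 0.061), and RPL10, which joins the large subunit late, 518 and 554 CPM and 667 CPM (0.38 ± 0.17, adjusted p = 0.119).

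Genes that build or serve the ribosome are given for comparison. Of 48 ribosome biogenesis factors, 0 rose (all genes 19.2%) and 28 fell (all genes 17.5%) on hours by edgeR, with a median slope of -0.65. At an unadjusted p under 0.05, 1 rose and 34 fell (all genes not counted). DESeq2 called 1 up and 28 down (3342 and 3249 of all 15976 genes). The median stayed below that of all genes under all 6 scalings, by 0.63 to 0.65, a distance that a library factor can hardly change. The median minus that of all genes was -0.579 with the GC offset, -0.606 without 0 h replicate 1 and -0.487 without replicate 2. GAR1, of the H/ACA particle that pseudouridylates ribosomal RNA, fell from 16.6 and 14.5 to 5.98 CPM (-1.37 ± 0.30, adjusted p = 0.0101), LTV1, a chaperone of small-subunit export, from 42.8 and 40.5 to 18.6 CPM (-1.13 ± 0.30, adjusted p = 0.0191), and the smallest of the called declines was that of NIP7, from 44.3 and 46.1 to 30.2 CPM (-0.48). With LDN dose 20 of the 48 rose (all genes 10.4%) and 0 fell (all genes 10.9%). The counts were 29 and 1 at an unadjusted p under 0.05 (all genes not counted), and 19 and 0 by DESeq2 (1182 and 1207 of all 14907 genes). NOP2, a ribosomal RNA methyltransferase, rose from 74.7 to 105 CPM (0.45 ± 0.05, adjusted p = 5.07e-05), and IMP3 from 91.0 to 115 CPM (0.33 ± 0.06, adjusted p = 0.000995).

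Of 30 tested subunits and factors of RNA polymerases I and III, 2 rose (all genes 19.2%) and 8 fell (all genes 17.5%) on hours. Under 4 of the other scalings 0 rose (all genes 9.16% to 14%). Without 0 h replicate 1 the counts were 1 and 5 (2326 and 1990 of all 15951 genes). POLR3G, the subunit of the pluripotent form of polymerase III, fell from 153 and 139 to 10.1 CPM (-3.94, adjusted p = 8.91e-05) and rose with dose from 120 to 170 CPM (0.51, adjusted p = 4.34e-06), with 240 CPM in untreated cells. POLR1B fell from 80.2 and 71.4 to 34.1 CPM on hours. Over the doses 11 of 31 rose (all genes 10.4%) and 3 fell (all genes 10.9%), among them UBTF, the polymerase I activator, from 330.0 to 276 CPM. Of 20 translation factors and other genes whose messages carry the TOP motif, 4 rose (all genes 19.2%) and 1 fell (all genes 17.5%) on hours. Without 0 h replicate 2 the counts were 8 and 2 (3436 and 3166 of all 16022 genes). Scaled to the summed counts of the ribosomal members they were 1 and 2 (all genes 9.16% and 20.5%). EEF1A1, the elongation factor, rose from 4435 and 6591 to 11730 CPM (1.10, adjusted p = 0.00824) and EIF3F from 206 and 190 to 314 CPM (0.72, adjusted p = 0.0191), while VIM fell from 95.0 and 73.2 to 17.3 CPM. With dose 2 rose (all genes 10.4%) and 1 fell (all genes 10.9%). FAU, which encodes a small-subunit protein fused to a ubiquitin-like protein, rose from 209 to 229 CPM (0.13, adjusted p = 0.0367). Of 78 mitochondrial ribosomal protein genes, 3 rose (all genes 19.2%) and 10 fell (all genes 17.5%) on hours. Without 0 h replicate 2 the counts were 17 and 5 (3436 and 3166 of all 16022 genes). Without replicate 1 they were 0 and 5 (2326 and 1990 of all 15951 genes). With dose 13 rose (all genes 10.4%) and 0 fell (all genes 10.9%). The counts were 24 and 2 at an unadjusted p under 0.05 (all genes not counted), and 7 and 0 by DESeq2 (1182 and 1207 of all 14907 genes).

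Pairs of members were alike in their profiles. The median Pearson's r of log2 CPM over the 7 libraries of the time series was 0.65 among the 3081 pairs, and over the 5 doses 0.49, whereas the median over pairs of all genes was -0.00 in both. Of the pairs 9.83% had a negative r over time and 26.1% over dose. All pairs share the same few libraries, so a library that departs from the rest moves every pair, and no test is attached to these values.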

How the data were processed

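Bulk RNA-seq of 7 time-series and 6 dose-series libraries was analysed. Per the labels and the study's methods, the authors trimmed adapters with Cutadapt, aligned reads to GRCh38 with STAR 2.7.8a and estimated expression with RSEM 1.3.3. The authors deposited expected counts, which need not be whole, and FPKM, which divide by transcript length and depth. Kit and RNA selection differed between the series, which were never tested together.

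Members were found by symbol and Ensembl identifier. Members and gene lists were chosen with earlier results of these data known. Expected counts were tested without rounding in edgeR 4.0.16 (R 4.3.3) with TMM factors for genes whose mean reached 1 CPM. The quasi-likelihood test was of a slope on hours, printed as the change over 42 h, or on dose step (0 to 4). Counts were rounded to whole numbers for the DESeq2 test alone. P-values were adjusted by Benjamini and Hochberg's method over all genes tested, threshold 0.05. Standard errors are the slope over the square root of F. CPM printed for single genes are TMM-scaled with TMM from the libraries of that series, the untreated library included for doses. Alternatives were library total, DESeq2 size factors, upper quartile, the total without members and mitochondrial genes, the summed counts of members, DESeq2 1.42.0, no filter, a mean of 10 CPM, limma 3.58.1 on log2(FPKM + 0.1) and log2(FPKM + 1), time as order, SMAD4 signaling in place of dose step, and each library left out. A GC offset (spline, 5 degrees of freedom) and the library total for untreated cells were added after the data were seen. GC content came from canonical transcripts of GENCODE 44, and promoters from RefSeq.

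Named members were the 5 highest and 5 lowest slopes of each trend, the 5 highest and 3 lowest levels at 0 h, paralogs and their partners, the stalk with RPSA, and RPL5, RPL11, RPS19, RPS6, RPS27A and RPL10A. Of each related list the 2 highest and 2 lowest called slopes were eligible. Members that differed by over 1.5-fold in untreated cells, and those called relative to the module, were named after their values were seen. The values of 2 members that the rule names are not reported here. On simulated data, the trend test found 49% of genes changed by 1 and 100% changed by 2 on the log2 scale over the time series (15976 genes), and 90% and 100% over the doses (14907 genes). The simulated dispersion was set at 0.03 for time and 0.005 for dose, not estimated from these libraries. No change under 1 was simulated, so these rates do not tell how often changes as small as those of the members are found. Library totals set the counting error, and with 1 library per time or dose the scatter between samples adds to it.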

Additional observations from a re-analysis of the deposited data

How the results depend on the processing

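No paired analysis was possible because the time series has replicates only at 0 h and the dose series none. On hours, the 7 members rising became 3 with the library total, upper quartile, time as order or the GC offset, 4 at a mean of 10 CPM, 2 with the total without members and mitochondrial genes, the summed counts of members or limma on log2(FPKM + 0.1), and 1 with limma on log2(FPKM + 1). Leaving out 1 library gave 0 to 27, highest without 0 h replicate 2 and lowest without 42 h. With the GC offset, 1 rose without 0 h replicate 1 (1971 of all 15951 genes) and 23 without replicate 2 (2887 of all 16022 genes). Of all genes, 2864 of 15976 rose with time as order and 2068 of 10379 at a mean of 10 CPM. With limma, 2102 of 15976 rose on log2(FPKM + 0.1) and 2110 on log2(FPKM + 1). The 1 member falling became 4 with the library total, 8 with the total without members and mitochondrial genes or the summed counts of members, 3 and 2 with limma on log2(FPKM + 0.1) and log2(FPKM + 1), 0 with no filter or with the GC offset, also without either 0 h library, and 0 to 1 on leaving out 1 library. Of all genes, 3750 and 3585 of 15976 fell with limma in the same order, and 3049 of 39033 with no filter. With the GC offset, 2215 of 15951 fell without 0 h replicate 1 and 3212 of 16022 without replicate 2. Between 1387 and 3166 fell on leaving out 1 library. The median slope of 0.147 became -0.0879 with the library total, -0.141 with the total without members and mitochondrial genes, -0.19 with the summed counts of members, and -0.0939 and -0.0938 with limma on log2(FPKM + 0.1) and log2(FPKM + 1). It was also 0.239 with no filter, 0.0902 at a mean of 10 CPM, and -0.0123 (without 42 h) to 0.343 (without 0 h replicate 2) on leaving out 1 library. On dose, the 23 rising became 5 with the summed counts of members, 4 and 3 with limma on log2(FPKM + 0.1) and log2(FPKM + 1), 50 with the GC offset, and 8 to 23 on leaving out 1 library, lowest without 300 nM (8) and 100 nM (13). Of all genes, 415 of 14907 rose with either limma setting, and between 874 and 1423 on leaving out 1 library. The 0 falling became 3 with the summed counts of members, where the median slope of 0.0784 was 0.00696, and the GC offset gave 0.132. The cause of these shifts was not tested, except that scaling to the members removes their common level by construction. The share at 42 h over 0 h, 1.04, was 1 without mitochondrial genes, 1.05 with copies, 0.899 on FPKM, and 0.928 to 1.18 with 1 0 h library. None of the 8 members called on hours or the 23 called on dose changed sign under any alternative of that trend. They were called for their slopes in these same libraries, so the sign could hardly change and is no check. Many of the calls were lost on leaving out 1 library, as given above.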
